A study of Mus musculus with 24 samples.

Results

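Interferon-stimulated genes are genes that cells switch on when interferons reach them, and 39 of them, chosen by symbol from a fixed list, were followed across 3 mouse tissues and 2 ages. All 39 were found among the 55401 genes of the count table. They were read as 3 transcription factors (Irf7, Irf9, Stat2), 4 nucleic acid sensors (Ddx58, Ifih1, Dhx58, Zbp1), the ISG15 pair (Isg15, Usp18), 4 IFIT genes, 6 OAS genes, 6 genes for Mx and other antiviral effectors (Mx1, Mx2, Rsad2, Cmpk2, Bst2, Trim30a), 8 genes for interferon-inducible GTPases (Ifi47, Igtp, Irgm1, Irgm2, Iigp1, Gbp2, Gbp3, Gbp7) and 6 others (Ifi44, Ifi35, Xaf1, Parp14, Rtp4, Ifi27). Ribosomal RNA was removed from total RNA before sequencing, in samples of kidney, left ventricle and skeletal muscle of C57BL6/J mice, a standard inbred strain, at 86 weeks and at 16.5 weeks. Each age had 2 male and 2 female mice. The same 8 mice gave all 3 tissues, so there were 24 libraries, 4 for each tissue and age. No treatment, transgene or deletion is named for any mouse. The labels name neither the muscle nor the region of the kidney taken. Libraries are named here by age and by the mouse's number. The 86-week mice were replicates 11 and 12 (female) and 14 and 17 (male), and the 16.5-week mice were replicates 14 and 15 (female) and 19 and 20 (male). The number 14 therefore stands for a different animal at each age.

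Interferons are secreted when sensors such as RIG-I or cGAS meet foreign or misplaced nucleic acid. Type I and type III interferons act through receptors that lead to the ISGF3 complex, whose subunits include STAT2 and IRF9 and which binds the interferon-stimulated response element (ISRE) in promoters. Interferon gamma, the type II interferon, acts on promoters through the gamma-activated site (GAS). In resting tissue the response genes are kept at a low level that cells raise quickly, and several of them, such as the sensors and IRF7, feed back on interferon production. The OAS, IFIT and Mx families are best known as type I targets, whereas the immunity-related GTPases and guanylate-binding proteins (Irg and Gbp genes) are known in the mouse as strong targets of interferon gamma.

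Promoter bases of 8 members are shown because interferon signals reach these genes through such motifs, and 4 of the 8 are GTPase genes. Igtp and Irgm2 stand apart in 1 muscle library below, and Gbp3 has the largest sex difference in kidney. RefSeq promoters (GRCm38.p6) were found for 29 of the 39 members. The other 10 (Dhx58, Zbp1, Usp18, Oas2, Mx1, Mx2, Iigp1, Parp14, Rtp4 and Ifi27) had no entry. Each line gives the 150 bases just before the annotated transcription start, 5′ to 3′ on the gene's own strand. Capitals mark matches on either strand to a core of the ISRE, which is GAAA, any 2 bases and GAAA again, or to TTCNNNGAA, the GAS consensus. Where both motifs overlap the capitals run together. For Gbp3 the first of its entries was used.
Isg15 (chr4:156200819-156200968, minus strand): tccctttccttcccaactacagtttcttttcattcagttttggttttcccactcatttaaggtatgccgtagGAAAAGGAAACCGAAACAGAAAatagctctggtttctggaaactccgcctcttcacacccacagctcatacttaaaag
Ifit1 (chr19:34640739-34640888, plus strand): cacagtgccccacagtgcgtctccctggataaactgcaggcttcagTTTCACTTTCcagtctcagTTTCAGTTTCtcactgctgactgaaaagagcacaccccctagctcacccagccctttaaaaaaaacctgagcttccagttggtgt
Rsad2 (chr12:26456453-26456602, minus strand): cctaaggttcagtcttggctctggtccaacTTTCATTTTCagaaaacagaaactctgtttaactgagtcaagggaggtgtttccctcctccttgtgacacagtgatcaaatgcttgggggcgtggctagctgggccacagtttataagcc
Bst2 (chr8:71537473-71537622, minus strand): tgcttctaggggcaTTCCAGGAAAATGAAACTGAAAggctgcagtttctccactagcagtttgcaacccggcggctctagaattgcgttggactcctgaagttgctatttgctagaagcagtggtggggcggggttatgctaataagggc
Igtp (chr11:58199406-58199555, plus strand): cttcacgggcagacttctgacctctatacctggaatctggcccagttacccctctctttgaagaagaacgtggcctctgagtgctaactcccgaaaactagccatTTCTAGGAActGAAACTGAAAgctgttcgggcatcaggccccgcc
Irgm2 (chr11:58214827-58214976, plus strand): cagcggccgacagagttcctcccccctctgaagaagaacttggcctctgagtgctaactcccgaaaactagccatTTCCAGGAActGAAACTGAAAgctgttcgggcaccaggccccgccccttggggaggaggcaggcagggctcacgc
Gbp2 (chr3:142620513-142620662, plus strand): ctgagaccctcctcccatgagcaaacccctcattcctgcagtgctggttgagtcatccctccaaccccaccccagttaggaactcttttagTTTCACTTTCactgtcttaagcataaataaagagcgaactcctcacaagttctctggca
Gbp3 (chr3:142559894-142560043, plus strand): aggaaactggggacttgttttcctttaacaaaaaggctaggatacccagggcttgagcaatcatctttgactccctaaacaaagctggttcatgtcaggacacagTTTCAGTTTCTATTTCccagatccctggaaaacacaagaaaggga

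Isg15 carried 3 overlapping ISRE cores between 78 and 57 bases before its start, and Ifit1 carried 2 separate ones. In Bst2 a GAS match ran directly into 2 overlapping ISRE cores. In Igtp the GAS match lay 45 to 37 bases before the start and the ISRE core 34 to 25 bases before it. In Irgm2 the same pair lay at 75 to 67 and 64 to 55 bases. The 2 genes are neighbours on chromosome 11 and share some annotated exon bases. Over their 250-base promoters 194 of 215 aligned bases were identical (90.2%). Within 250 bases of the start, 17 of the 29 members (58.6%) held an ISRE core, against 936 of 27025 genes with a promoter entry (3.46%). A GAS match stood in 6 of 29 members (20.7%: Ifit2, Oas1a, Bst2, Igtp, Irgm2 and Gbp7), against 2197 of 27025 genes (8.13%). Among the GTPases with an entry, 6 of 7 held an ISRE core and 3 of 7 a GAS match. A match describes letters in this window and does not show binding.

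Library totals ran from 52602585 to 103797551 counts, and every member had at least 21 counts in every library (the fewest were for Ifi47). Levels are counts per 1000000 counts of the library (CPM) after trimmed-mean (TMM) scaling, and levels of different genes are compared only after division by exon length (CPM per exon kb). The labelled tissues matched their own markers. The summed level of Umod, Slc34a1, Slc12a1 and Kap was 4517 to 9751 CPM in kidney and at most 69.5 CPM elsewhere. Myh6, Myl2, Myl7 and Nppa together reached 32850 to 47830 CPM in left ventricle and at most 412.5 CPM elsewhere, the highest in the muscle of 86-week replicate 17. Of these, Myl7, an atrial myosin light chain, had 24.8, 11.2, 27.9 and 0.635 CPM in the 86-week and 0.635, 0.422, 33.8 and 0.403 CPM in the 16.5-week ventricles. Myh4, Acta1, Ckm and Mylpf together reached 112800 to 161100 CPM in skeletal muscle and at most 923 CPM elsewhere. Over 1410 olfactory receptor genes and pseudogenes, taken as genes these tissues do not use, the 95th percentile was 0.248 CPM per exon kb in kidney, 0.298 in left ventricle and 0.347 in skeletal muscle. All 39 members lay above that level in kidney and in left ventricle, and 37 did in skeletal muscle, where Ifi47 and Ifi44 did not. Coding sequences of Ifit3 and Ifit3b are 99.1% identical and those of Oas1a and Oas1g 96.7%, so how counts were split within these pairs is uncertain. Irf7 shares exon bases with Phrf1 on the opposite strand. In all, 13 members share some with another gene, 7 of them with a gene on the opposite strand. The strand setting of the counting is not given in the sources used here, so reads from opposite strands cannot be told apart. For overlaps on the same strand, that setting would not separate the reads. Igtp and Irgm2 share exon bases on the same strand, so how counts were split within this pair is uncertain too.

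Per exon length, the members spanned a wide range in each tissue. In kidney the highest levels were those of Ifi27, a small interferon-induced membrane protein (12.7 CPM per exon kb), Gbp3 (9.40), Bst2 (8.07), Ifit3 (8.001) and Rsad2 (7.54), and the lowest was that of Oas3 (0.439). In left ventricle Bst2, the membrane tether that holds budding virions (10.7 CPM per exon kb), Ifi27 (8.26), Igtp (5.42) and Iigp1 (5.32) led, and Zbp1 was lowest (0.442). In skeletal muscle Ifi27 (9.04 CPM per exon kb), Igtp (8.61) and Irgm2 (7.58) led, and Ifi44 was lowest (0.274). The kidney mean of Gbp3 averages sexes that differ, with 2.68 ± 0.276 CPM per exon kb in males and 16.1 ± 3.28 in females (SD, n = 4 each). The muscle means of Igtp and Irgm2 include 1 library far above the others, described below.

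**Figure D1:**
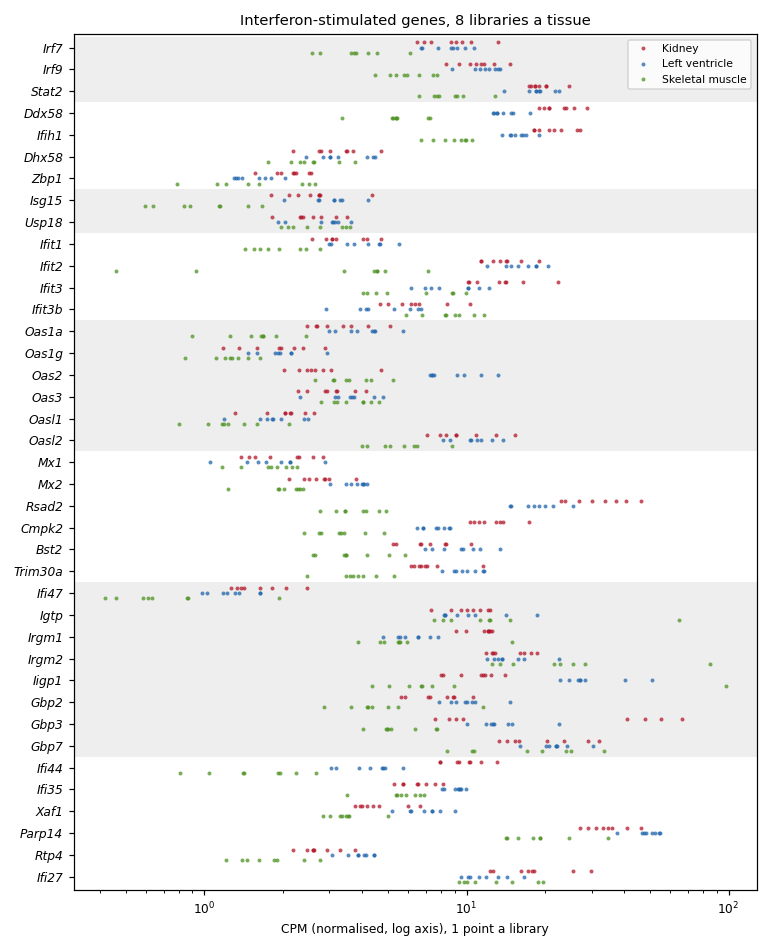
Normalised level of each of the 39 genes in every library, with kidney, left ventricle and skeletal muscle as separate rows of points within a gene (CPM, log axis, 8 libraries a tissue, shading marks the groups by role). Most genes have their muscle points to the left, and the far right points of Igtp, Irgm2 and Iigp1 come from 1 muscle library with 64.7, 84.7 and 97.5 CPM.

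The first comparison asked how the level of each gene differed between tissues. Most members were lower in skeletal muscle than in either other tissue. In left ventricle against skeletal muscle, 29 of 39 members were higher (15% of all genes tested were) and 2 were lower (10.9% of all genes). In kidney against skeletal muscle, 28 were higher (21.9% of all genes) and 3 lower (21.4%). In kidney against left ventricle, 9 were higher (19.1%) and 9 lower (14.2%). With scaling by total counts alone, 14 were higher and 2 lower in kidney against left ventricle, 33 higher and 0 lower in kidney against muscle, and 29 higher and 1 lower in left ventricle against muscle. The calls are edgeR quasi-likelihood tests with a Benjamini-Hochberg adjusted p under 0.05 over all genes tested. The median log2 difference over the 39 members was 0.97 in left ventricle against muscle, where that of all genes was -0.12. It was 0.79 in kidney against muscle (all genes -0.24) and -0.08 in kidney against left ventricle (all genes -0.10). Under total counts alone, the median was 1.28 for the members and 0.20 for all genes in left ventricle against muscle, 1.40 and 0.35 in kidney against muscle, and 0.19 and 0.17 in kidney against left ventricle. In whole tissue, fewer cells of a type and less RNA per cell cannot be told apart. Both comparisons with muscle share the muscle libraries, and 25 members were higher in left ventricle and in kidney. Left ventricle had the highest mean and muscle the lowest for 17 members, and kidney the highest and muscle the lowest for 12.

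The transcription factors were alike in kidney and ventricle. Stat2, a subunit of ISGF3, averaged 19.4 ± 2.34 CPM in kidney, 18.8 ± 2.64 in left ventricle and 8.81 ± 1.94 in skeletal muscle (SD, n = 8 each). Irf9, the DNA-binding subunit of ISGF3, averaged 11.2 ± 1.96, 11.8 ± 1.52 and 6.04 ± 1.14 CPM in kidney, ventricle and muscle. Irf7, the factor that amplifies type I interferon output, averaged 8.97 ± 2.196 CPM in kidney, 8.57 ± 1.41 in ventricle and 3.92 ± 1.11 in muscle. All 3 were higher in kidney and in ventricle than in muscle, with no overlap of libraries, and none passed the test in kidney against ventricle.

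Of the 4 sensors, 3 were higher in kidney than in either other tissue. Ddx58, which encodes the RNA sensor RIG-I, had 24, 28.9, 20.6 and 20.6 CPM in the 86-week and 25.7, 23.5, 19.7 and 18.97 CPM in the 16.5-week kidneys. Its ventricle libraries ran from 12.6 to 17.5 CPM and its muscle libraries from 3.35 to 7.24 CPM. No library of one tissue reached the range of another. Its log2 difference was 0.68 ± 0.10 in kidney against ventricle (edgeR adjusted p = 3.64e-06), 2.04 ± 0.11 in kidney against muscle (2.76e-15) and 1.36 ± 0.11 in ventricle against muscle (3.06e-11), each with its standard error. Ifih1, which encodes the RNA sensor MDA5, had the same order, with 21.7 ± 3.54, 15.9 ± 1.66 and 8.9 ± 1.32 CPM in kidney, ventricle and muscle. Zbp1, a sensor of Z-form nucleic acid, was higher in kidney (2.13 ± 0.325 CPM) than in ventricle (1.56 ± 0.268) or muscle (1.71 ± 0.702), and did not pass the test in ventricle against muscle (-0.06 ± 0.13). Dhx58, which encodes the RNA helicase LGP2, passed only in ventricle against muscle (0.40 ± 0.15).

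Among the effectors, Rsad2 had the largest tissue difference of the 39 members. This gene encodes viperin, which makes a chain-terminating nucleotide, and Cmpk2 beside it on chromosome 12 encodes a nucleotide kinase. Rsad2 had 33.7, 46.4, 22.9 and 40.6 CPM in the 86-week and 37.1, 29.99, 23.9 and 26.9 CPM in the 16.5-week kidneys, against 14.7 to 25.5 CPM in ventricle and 2.76 to 4.94 CPM in muscle. Every muscle library lay below every other library, and the kidneys of 86-week replicate 14 and 16.5-week replicate 19 fell within the ventricle range. The log2 difference was 3.09 ± 0.13 in kidney against muscle (edgeR adjusted p = 3.27e-17), 2.30 ± 0.13 in ventricle against muscle (4.07e-14) and 0.80 ± 0.12 in kidney against ventricle (4.55e-06). Cmpk2 averaged 12.7 ± 2.25 CPM in kidney, 7.63 ± 0.853 in ventricle and 3.36 ± 0.791 in muscle, and its kidney libraries all lay above those of the other tissues. Ifi44, an interferon-induced protein with antiviral activity, had the same order with 9.92 ± 1.76, 4.32 ± 0.908 and 1.68 ± 0.624 CPM. Its log2 difference was 1.20 ± 0.13 in kidney against ventricle and 2.61 ± 0.14 in kidney against muscle.

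Isg15, the ubiquitin-like modifier, had 2.73, 4.38, 2.28 and 2.74 CPM in the 86-week and 2.53, 2.77, 1.79 and 2.09 CPM in the 16.5-week kidneys. In ventricle it had 3.12, 4.195, 2.74 and 2.01 CPM at 86 weeks and 3.28, 3.12, 3.36 and 2.701 CPM at 16.5 weeks. In muscle it had 1.14, 1.46, 1.15 and 0.884 CPM at 86 weeks and 0.635, 1.66, 0.593 and 0.835 CPM at 16.5 weeks. Kidney and ventricle overlapped, and all muscle libraries lay below both. Usp18, the protease that removes ISG15 and also damps the type I receptor, passed in none of the 3 tissue comparisons, with 2.62 ± 0.536, 2.86 ± 0.602 and 2.73 ± 0.657 CPM in kidney, ventricle and muscle. The other members that passed in none were Oas3, Mx1, Igtp and Gbp7.

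The families were split within themselves. Of the IFIT genes, whose proteins bind foreign RNA or each other, Ifit1 had 2.58 to 4.697 CPM in kidney, 2.99 to 5.52 in ventricle and 1.43 to 2.75 in muscle, where 1 muscle library, that of 16.5-week replicate 15, reached the kidney range. Ifit2 had 0.928 CPM in the muscle of 86-week replicate 12 and 0.459 CPM in that of 16.5-week replicate 19, and 3.40 to 7.15 CPM in the other 6 muscle libraries. Its log2 difference was 2.13 ± 0.30 in ventricle against muscle and 1.89 ± 0.30 in kidney against muscle. Ifit3 and Ifit3b went apart. Ifit3 was lowest in muscle (6.54 ± 2.42 CPM, with 13.96 ± 4.06 in kidney and 8.99 ± 2.21 in ventricle), and Ifit3b was highest there (8.76 ± 1.901 CPM, with 6.65 ± 1.87 in kidney and 4.97 ± 1.39 in ventricle). Ifit3b gave -0.81 ± 0.17 in ventricle against muscle (edgeR adjusted p = 0.000373). In kidney against muscle it gave -0.41 ± 0.17 (adjusted p = 0.0476, and 0.00154 to 0.377 over 17 fits). That call was lost in 10 of 16 other fits, among them those without 86-week replicates 11, 12 or 14 (adjusted p = 0.169, 0.0547 and 0.131) or 16.5-week replicates 14, 15 or 19 (0.0859, 0.106 and 0.073). Under total counts alone its sign turned, to 0.20.

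The OAS genes encode synthetases of 2′-5′-oligoadenylate, which activates RNase L, and relatives such as the enzymatically inactive OASL1. Oas2 was highest in ventricle. It had 11.3, 13.2, 7.53 and 7.29 CPM in the 86-week and 7.37, 9.78, 9.23 and 7.36 CPM in the 16.5-week ventricles, whereas the kidneys had 2.01 to 4.71 CPM and the muscles 2.65 to 5.23 CPM. All ventricle libraries lay above all others. The log2 difference was -1.70 ± 0.15 in kidney against ventricle (edgeR adjusted p = 1.14e-10) and 1.30 ± 0.14 in ventricle against muscle. In kidney against muscle Oas2 gave -0.40 ± 0.14 (adjusted p = 0.0276, and 0.000822 to 0.470 over 17 fits). That call was lost in 8 of 16 other fits, among them those without 86-week replicates 11, 14 or 17 (adjusted p = 0.080, 0.0553 and 0.105) or 16.5-week replicate 15 (0.114), and the sign turned, to 0.18, under total counts alone. Oas3, its neighbour on chromosome 5, had 3.102 ± 0.616, 3.61 ± 0.768 and 3.701 ± 0.6499 CPM in kidney, ventricle and muscle. Oasl2 had 10.9, 15.3, 8.34 and 9.13 CPM at 86 weeks and 9.15, 13, 7.897 and 7.05 CPM at 16.5 weeks in kidney. In ventricle it had 12.5, 13.8, 10.98 and 8.16 CPM and 10.4, 10.4, 11.3 and 8.66 CPM, and in muscle 6.33, 6.49, 5.78 and 4.17 CPM and 5.12, 8.77, 3.98 and 4.89 CPM, at 86 and 16.5 weeks. Its muscle libraries were lower on average, with the muscle of 16.5-week replicate 15 inside the ranges of both other tissues.

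Besides Oas2 and Iigp1, 7 members were lower in kidney than in ventricle, namely Bst2, Mx2, Trim30a, Ifi35, Xaf1, Parp14 and Rtp4. Parp14, a mono-ADP-ribosyltransferase, averaged 34.8 ± 6.29 CPM in kidney, 49.1 ± 5.58 in ventricle and 19.9 ± 6.86 in muscle. In kidney against ventricle the log2 differences were -0.51 ± 0.15 for Parp14 (edgeR adjusted p = 0.00881), -0.57 ± 0.12 for Xaf1, which antagonises an inhibitor of apoptosis (0.000244), -0.49 ± 0.13 for Rtp4, a receptor transporter protein (0.002398), and -0.48 ± 0.12 for Ifi35, a partner of NMI (0.00175). With scaling by total counts alone all 7 calls were lost, and of the 9 lower members Oas2 and Iigp1 passed. Under that scaling the adjusted p was the highest of 17 fits, at 0.298, 0.0961, 0.287 and 0.14 for Parp14, Xaf1, Rtp4 and Ifi35. Bst2 had 8.36, 10.4, 6.72 and 7.28 CPM in the 86-week and 6.62, 8.27, 5.24 and 5.39 CPM in the 16.5-week kidneys. In ventricle it had 8.22, 13.4, 11.3 and 6.92 CPM and 9.56, 9.68, 10.6 and 7.38 CPM, and in muscle 3.42, 5.08, 4.17 and 2.64 CPM and 3.47, 5.85, 2.601 and 3.46 CPM, at 86 and 16.5 weeks. Kidney overlapped both other tissues, and ventricle lay above muscle in every library. Ifi27 was higher in kidney than in ventricle (0.60 ± 0.16) and than in muscle (0.49 ± 0.16). It had 17.8, 25.5, 16.2 and 17.2 CPM in the 86-week and 18.1, 29.8, 12.6 and 12.3 CPM in the 16.5-week kidneys, against 9.53 to 16.6 CPM in ventricle and 9.37 to 19.6 CPM in muscle, with overlap between all 3 tissues.

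**Figure D2:**
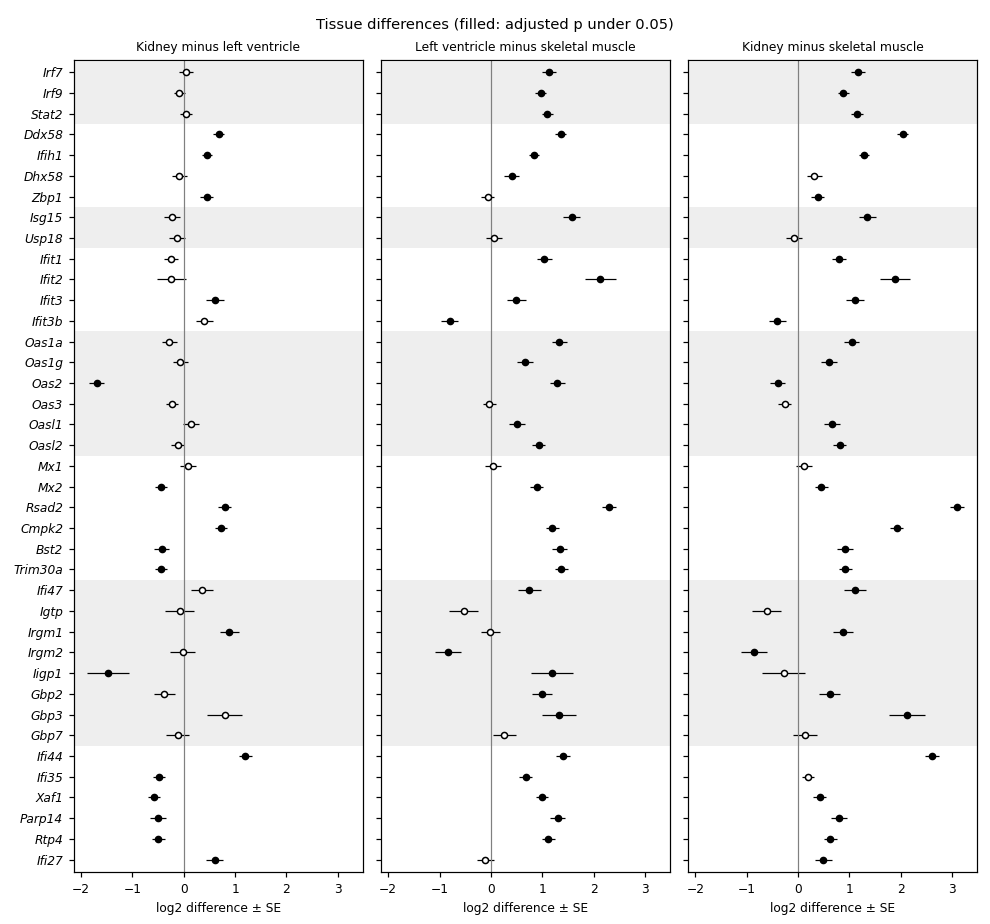
Log2 difference between tissues with its standard error for each of the 39 genes (8 libraries a tissue, filled points have an adjusted p under 0.05). Left ventricle and kidney lie to the right of 0 against skeletal muscle for most genes, up to 3.09 for Rsad2, and kidney against left ventricle has 9 filled points on each side with TMM scaling (14 higher and 2 lower under total counts alone, not drawn).

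Non-overlap of whole groups of 8 libraries was counted as well. The ventricle libraries lay above all muscle libraries for 21 of 39 members (9.72% of all genes). The kidney libraries lay above all muscle libraries for 13 (15.2%). Kidney lay above ventricle for 4, Ddx58, Irgm1, Cmpk2 and Ifi44 (12.7% of all genes), and below it for 2, Oas2 and Iigp1 (7.30%). Marker genes of other cell types differed between the tissues too. The 7 endothelial markers summed to 260.2 to 383 CPM in kidney, 688 to 818 in left ventricle and 120.2 to 239 in skeletal muscle. The 10 macrophage markers summed to 76.7 to 187, 173 to 256 and 43.8 to 168 CPM in kidney, ventricle and muscle. Neutrophil markers were near 0 in all libraries (0.525 to 1.17, 0.961 to 2.37 and 0.609 to 1.397 CPM over 4 genes). The part of these markers in the members' tissue differences was not tested.

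Other genes of the pathway came from fixed lists. All 17 interferon ligand genes stayed under 0.5 CPM on average in every tissue, and their sum was 2.08 to 4.47 CPM over all libraries. Of the 6 receptor genes, 5 were higher and 1 lower in kidney than in muscle, 1 was higher and 3 lower in kidney than in ventricle, and 6 were higher in ventricle than in muscle. Ifnar1, a chain of the type I receptor, had a log2 difference of 0.67 ± 0.09 in kidney against ventricle. Ifngr2, a chain of the interferon gamma receptor, had -2.78 ± 0.13 in kidney against ventricle and -2.11 ± 0.13 in kidney against muscle. Its level was 9.16 to 11.01 CPM in kidney, 55.8 to 86.8 CPM in ventricle and 27.4 to 55.5 CPM in muscle, with no overlap. Of 18 other genes of nucleic acid sensing, 12 were higher in ventricle than in muscle and 0 lower, and 10 were higher and 3 lower in kidney than in ventricle. Of 42 other interferon-induced genes, 37 were higher in ventricle than in muscle and 0 lower (median log2 difference 1.04). In kidney 31 of them were higher and 2 lower than in muscle (median 0.94), and 10 were higher and 14 lower than in ventricle.

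The second comparison was age, 86 weeks against 16.5 weeks within each tissue, with 4 mice an age. No member passed the test in any tissue. In kidney 0 of 39 passed (0.112% of all genes did) and 11 had an unadjusted p under 0.05 (7.96% of all genes). In left ventricle 0 of 39 passed (0.0741%) and 0 had an unadjusted p under 0.05 (3.37%). In skeletal muscle 0 of 39 passed (0.0183%) and 5 had an unadjusted p under 0.05 (5.51%). DESeq2 called 2 members in kidney, Irf7 and Mx1, and 0 in the other tissues, and limma-voom called 0 in each. The log2 change was above 0 for 31 members in kidney (53.5% of all genes), 31 in ventricle (51.4%) and 26 in muscle (52.6%). The member medians were 0.14 in kidney, 0.09 in ventricle and 0.10 in muscle, where those of all genes were 0.023, 0.0074 and 0.017. With scaling by total counts alone the muscle median was 0.21 for the members and 0.13 for all genes. In kidney that scaling gave 0.23 for the members and 0.12 for all genes. These medians moved in both directions with single mice. In kidney the median was 0.085 with 27 members above 0 without 86-week replicate 12, 0.25 with 33 above 0 without 86-week replicate 11, and 0.23 with 32 above 0 without 16.5-week replicate 15. In ventricle it was 0.0011 (20 above 0) without 86-week replicate 12 and 0.026 (24) without 86-week replicate 14, and it was 0.19 (36) without 86-week replicate 17. Leaving out 16.5-week replicates 14, 20 and 19 in turn gave ventricle medians of 0.032 (22 above 0), 0.034 (26) and 0.22 (36). In muscle the median was -0.10 (17 above 0) without 86-week replicate 14. Leaving out 16.5-week replicates 14, 19 and 15 in turn gave muscle medians of 0.0012 (20), 0.0035 (20) and 0.28 (31).

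Irf7 and Mx1 had the smallest p among the members in kidney. Irf7 had 10.4, 13.2, 9.11 and 9.58 CPM in the 86-week and 6.91, 8.75, 7.31 and 6.47 CPM in the 16.5-week kidneys. Every 86-week kidney lay above every 16.5-week kidney. The log2 change was 0.52 ± 0.12 (edgeR adjusted p = 0.166), and over 17 fits the adjusted p ran from 0.0421, with DESeq2, to 0.934. In ventricle Irf7 had 8.88, 10.7, 9.88 and 6.77 CPM at 86 weeks and 7.78, 8.72, 9.16 and 6.7 CPM at 16.5 weeks. In muscle it had 3.74, 4.198, 4.56 and 2.76 CPM and 3.63, 6.1, 2.56 and 3.796 CPM. The ages overlapped in both of these tissues.

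Mx1 encodes a dynamin-like GTPase that blocks influenza viruses in mice that carry a working allele, and C57BL/6 strains are known for a defective one. Mx2 is labelled a polymorphic pseudogene in the GENCODE M21 annotation. Mx1 had 2.82, 2.59, 2.304 and 2.26 CPM in the 86-week and 1.38, 1.57, 1.48 and 1.77 CPM in the 16.5-week kidneys, again with no overlap. The log2 change was 0.68 ± 0.16 (edgeR adjusted p = 0.192, and 0.0297, with DESeq2, to 0.828 over 17 fits). Bst2 gave 0.37 ± 0.12 (0.394), Oas3 0.43 ± 0.15 (0.447) and Iigp1 -0.40 ± 0.12 (0.387). The ages also did not overlap in kidney for Oas3 and Oasl1, so 4 members were higher in every 86-week kidney, against 2.28% of all genes.

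The signs in kidney are given by role. All 6 OAS genes (median log2 change 0.37), all 6 Mx and other antiviral genes (0.31), all 4 IFIT genes (0.21) and both genes of the ISG15 pair had a log2 change above 0. So did all 3 transcription factors (0.10), 3 of 4 sensors (0.21), 5 of 6 others (0.12) and 2 of the 8 GTPases (-0.12). Whether roles differed was not tested. In ventricle 4 of 8 GTPases had a change above 0 (-0.05) and in muscle 7 of 8 (0.60). None of these changes passed the test. In muscle all 8 GTPases were highest in 1 library, that of 86-week replicate 14, described below. Their sum was 316 CPM there and 46.4 to 88.3 CPM in the other muscles. In ventricle all 8 were highest in the library of 16.5-week replicate 19. Sums of immune markers are given for the kidneys by age, and no test was run on the sums. The 9 T and NK cell markers summed to 8.95 to 12.6 CPM at 86 weeks and 6.19 to 7.68 CPM at 16.5 weeks, and the 4 monocyte markers to 13.7 to 19.1 and 10.8 to 12.7 CPM, neither with overlap. Macrophage markers summed to 89.3 to 187 CPM at 86 weeks and 76.7 to 97.4 CPM at 16.5 weeks, which overlapped. B and plasma cell markers (51.8 to 96.9 and 54.97 to 64.3 CPM) overlapped too. So did neutrophil markers (0.596 to 1.17 and 0.525 to 0.854 CPM). The part of these markers in the members' values was not tested.

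**Figure D3:**
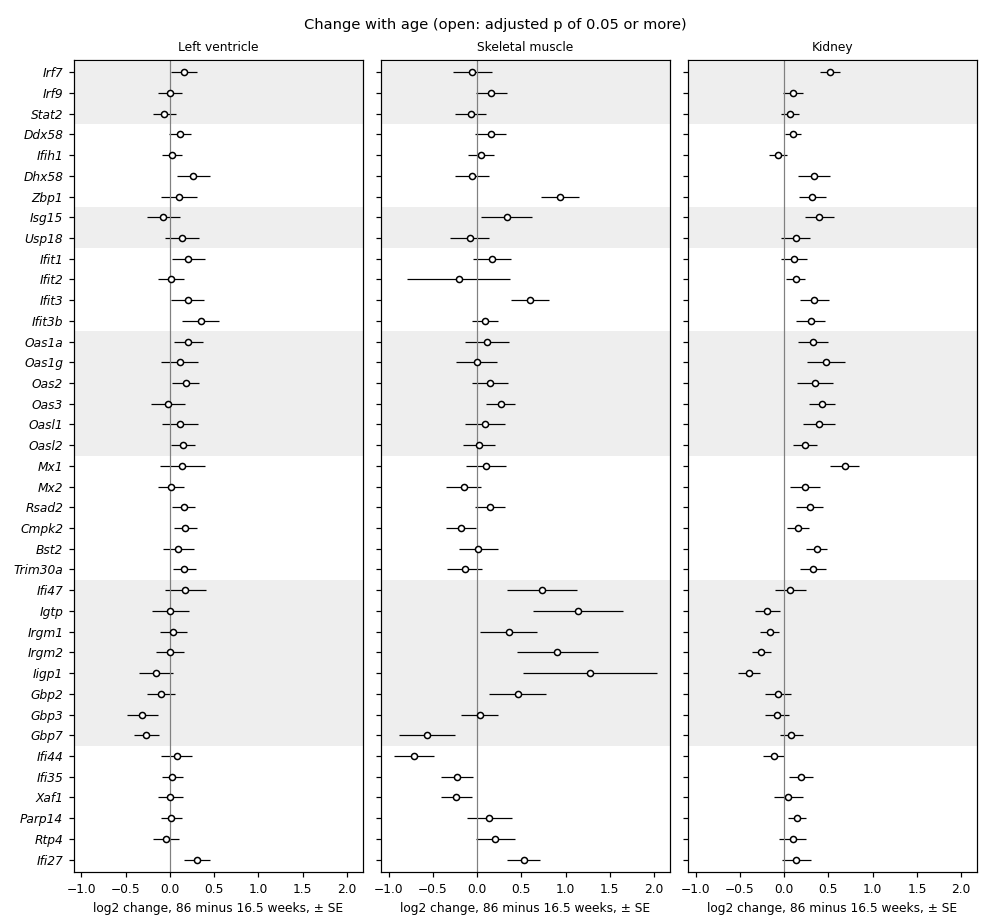
Log2 change with age, 86 weeks minus 16.5 weeks, with its standard error for each of the 39 genes in each tissue (4 libraries an age, open points have an adjusted p of 0.05 or more). All points are open, the kidney points of Irf7 (0.52) and Mx1 (0.68) lie to the right of 0, and the muscle GTPases have wide errors.

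In skeletal muscle Zbp1 had the smallest p. It had 2.36, 2.64, 2.51 and 1.47 CPM at 86 weeks and 1.21, 1.61, 0.784 and 1.11 CPM at 16.5 weeks. The muscles of 86-week replicates 11, 12 and 14 lay above all 16.5-week ones, and that of 86-week replicate 17 lay among them. The log2 change was 0.94 ± 0.22 (edgeR adjusted p = 0.377, and 0.0621 to 0.975 over 17 fits). These levels were near background. Zbp1 averaged 0.485 CPM per exon kb over all muscles, against 0.347 for the 95th percentile of olfactory receptor genes. The 16.5-week muscles alone averaged below that percentile. In kidney Zbp1 had 2.51, 2.54, 2.24 and 2.18 CPM and 1.97, 2.19, 1.89 and 1.56 CPM, and in ventricle 1.79, 2.03, 1.29 and 1.39 CPM and 1.34, 1.7, 1.62 and 1.32 CPM, at 86 and 16.5 weeks, with the ages overlapping in both.

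Other muscle values with low p stayed further from the threshold. Ifi44 gave -0.71 ± 0.23 (edgeR adjusted p = 0.724), with 1.404, 1.91, 0.805 and 1.04 CPM at 86 weeks and 1.95, 2.67, 2.24 and 1.41 CPM at 16.5 weeks. Ifi27 gave 0.53 ± 0.19 (0.8199), with 18.8, 19.6, 14.9 and 9.78 CPM at 86 weeks and 10, 9.37, 10.8 and 12.98 CPM at 16.5 weeks. Ifit3 gave 0.60 ± 0.22 (0.8202), with 8.85, 9.95, 8.82 and 4.01 CPM at 86 weeks and 4.53, 7.03, 4.97 and 4.17 CPM at 16.5 weeks. The ages overlapped for all 3. For Ifi27 and Ifit3 the muscle of 86-week replicate 17 lay apart from the other 86-week muscles, within or below the 16.5-week range.

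In ventricle the smallest p belonged to Ifi27 (0.30 ± 0.15), Gbp7 (-0.26 ± 0.14), Gbp3 (-0.31 ± 0.17), Ifit3b (0.35 ± 0.21) and Dhx58 (0.26 ± 0.19), all with an edgeR adjusted p of 0.9997. The ventricles had 14.2, 13.1, 16.6 and 9.53 CPM of Ifi27 at 86 weeks and 10.3, 10.1, 11.1 and 11.8 CPM at 16.5 weeks. The ventricle of 86-week replicate 17 was the lowest of the 8, and the others of that age the highest. Ifit1 and Ifit3 overlapped between ages in every tissue. Ifit1 had 4.16, 4.697, 3.07 and 2.58 CPM at 86 weeks and 3.17, 4.03, 3.07 and 2.899 CPM at 16.5 weeks in kidney. In ventricle Ifit1 had 5.52, 4.64, 4.23 and 2.99 CPM and 3.05, 3.71, 4.69 and 3.51 CPM, and in muscle 1.92, 2.32, 2.43 and 1.63 CPM and 1.75, 2.75, 1.55 and 1.43 CPM, at 86 and 16.5 weeks. The kidneys of the 86-week females, replicates 11 and 12, were the highest for Ifit3. Ifit3 had 16.5, 22.4, 10.97 and 13.3 CPM at 86 weeks and 10.3, 14.03, 10.1 and 14.1 CPM at 16.5 weeks in kidney, and 10.1, 10.1, 11.2 and 6.94 CPM and 7.32, 7.86, 12.2 and 6.12 CPM in ventricle.

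Whether the change with age differed between tissues was tested over all 24 libraries. No member passed (0.0149% of all genes did) in edgeR's test, and 4 had an unadjusted p under 0.05 (3.68% of all genes). DESeq2 and limma-voom called 0 as well. The 5 with the smallest p were Zbp1, Ifi44, Iigp1, Igtp and Irgm2, each with an adjusted p of 1. Their change with age in ventricle less that in muscle was -0.81, 0.79, -1.87, -1.19 and -0.93 on the log2 scale. None of the listed pathway genes passed the test with age in any tissue.

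The GTPases carried the largest difference between libraries of a single group. Immunity-related GTPases of the mouse such as IIGP1 coat and disrupt the vacuoles of intracellular parasites together with guanylate-binding proteins. The IRGM proteins, such as IRGM1 and IRGM2, keep such GTPases inactive on the cell's own membranes. In the muscle of 86-week replicate 14, a male, all 8 GTPases were the highest of the 8 muscle libraries (7 of 8 under total counts alone). Their sum there was 316 CPM, against 46.4 to 88.3 CPM in the other 7 muscles. Iigp1 had 5.04, 6.72, 97.5 and 4.37 CPM in the 86-week and 6.02, 7.37, 8.93 and 6.78 CPM in the 16.5-week muscles. Igtp had 12.3, 14.6, 64.7 and 7.52 CPM at 86 weeks and 12.1, 11.2, 8.74 and 8.15 CPM at 16.5 weeks. In both genes 1 library of 8 stood apart, and the other 7 lay close together. Irgm2 had 84.7 CPM in that library and 12.5 to 28.4 CPM in the others, Irgm1 14.9 and 3.86 to 5.94 CPM, Gbp2 11.6 and 2.85 to 5.46 CPM, and Ifi47 1.93 and 0.417 to 0.867 CPM. Gbp7 (33.3 CPM, others 8.44 to 25.1) and Gbp3 (7.73 CPM, others 4.03 to 7.67) were closer to the next library. Igtp and Irgm2 share exon bases, so the split of counts between them is uncertain.

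The other members were not raised as a group in that library. The median log2 deviation from the median of the 8 muscles was 1.35 for the 8 GTPases and 0.08 for the other 31 members, with 0.5 CPM added before the log. Of those 31, 5 were highest there, whereas 19 were highest in the muscle of 16.5-week replicate 15. In the wider pathway, Irf1, a transcription factor that interferon gamma induces, had 13.5 CPM there and 4.65 to 7.65 CPM in the other muscles, Gbp6 42.5 and 2.09 to 7.798 CPM, and the chemokine gene Cxcl9 3.54 and 0.536 to 1.495 CPM. Other listed Gbp genes were mixed. Gbp4, Gbp5 and Gbp9 had 12.1, 5.21 and 11.2 CPM there, below the 12.3, 6.04 and 14.9 CPM in the muscle of 16.5-week replicate 19. Gbp8 was highest in the muscle of 86-week replicate 14 (2.18 CPM, others 0.748 to 1.47). Ifng itself had 0.107 CPM there and 0.133 to 0.363 CPM in the others. Macrophage markers summed to 168 CPM there and 43.8 to 129.9 CPM in the others, T and NK cell markers to 8.73 and 5.26 to 7.67 CPM, and endothelial markers to 120.2 and 163 to 239 CPM. Their part in the GTPase values was not tested. In the same mouse the GTPase sum was 67.9 CPM in kidney, the lowest of 8, and 124 CPM in ventricle, the second highest of 8. The sexes differed in this kidney sum, with 75.9 to 83.02 CPM in the other male kidneys and 109.8 to 160 CPM in the female kidneys.

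Some GTPase values in muscle moved with that library. The log2 change of Igtp with age was 1.14 ± 0.51 (edgeR adjusted p = 0.899) with it and 0.06 without it. In ventricle against muscle Irgm2 gave -0.83 ± 0.25 (adjusted p = 0.0131, and 0.00253 to 0.184 over 17 fits) with it and -0.40 (adjusted p = 0.113) without it. That call was also lost without 16.5-week replicates 14 (adjusted p = 0.0687) or 15 (0.0668), with limma-voom (0.0588) and under total counts alone (-0.49, adjusted p = 0.184). In kidney against muscle Irgm2 gave -0.85 ± 0.25 (adjusted p = 0.00701, and 0.000898 to 0.549 over 17 fits) with it and -0.39 (0.0708) without it. Total counts alone moved that value further, to -0.23 (adjusted p = 0.549). Gbp2 had 4.23, 5.46, 11.6 and 2.85 CPM at 86 weeks and 4.16, 5.03, 3.63 and 4.35 CPM at 16.5 weeks in muscle. In ventricle it had 10.5, 10.01, 10.8 and 7.86 CPM and 8.72, 9.83, 14.6 and 9.14 CPM, and in kidney 7.25, 8.95, 5.62 and 8.44 CPM and 8.91, 10.6, 5.85 and 7.11 CPM. The ages overlapped in all 3 tissues.

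A ventricle library stood apart in the same genes by less. In the ventricle of 16.5-week replicate 19, also a male, all 8 GTPases were the highest of 8, with a sum of 169 CPM against 84.8 to 124 CPM in the other 7. Iigp1 had 26.6, 27.1, 40.2 and 22.7 CPM in the 86-week and 27.1, 28.3, 51.2 and 24.6 CPM in the 16.5-week ventricles. Igtp had 10.1, 10.8, 14.2 and 8.31 CPM at 86 weeks and 8.17, 9.23, 18.6 and 8.28 CPM at 16.5 weeks. For both, the ventricle of 86-week replicate 14 was the next highest. These ventricles were also the highest and the next highest for Myl7, at 33.8 and 27.9 CPM. The ventricle of 86-week replicate 11 followed for Myl7 (24.8 CPM), with 26.6 CPM of Iigp1, 10.1 CPM of Igtp and a GTPase sum of 107.7 CPM. The part of Myl7 differences in the GTPase values was not tested. The median log2 deviation in the ventricle of 16.5-week replicate 19 was 0.62 for the GTPases and 0.11 for the other 31. In kidney Iigp1 had 8.14, 11.8, 7.995 and 9.56 CPM at 86 weeks and 11.5, 13.98, 12.4 and 11.4 CPM at 16.5 weeks, below all ventricles. The log2 difference in kidney against ventricle was -1.48 ± 0.41 (edgeR adjusted p = 0.00466). Igtp in kidney had 8.71, 10.02, 7.33 and 12.1 CPM at 86 weeks and 10.6, 12.3, 11.2 and 9.53 CPM at 16.5 weeks, with the ages overlapping.

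**Figure D4:**
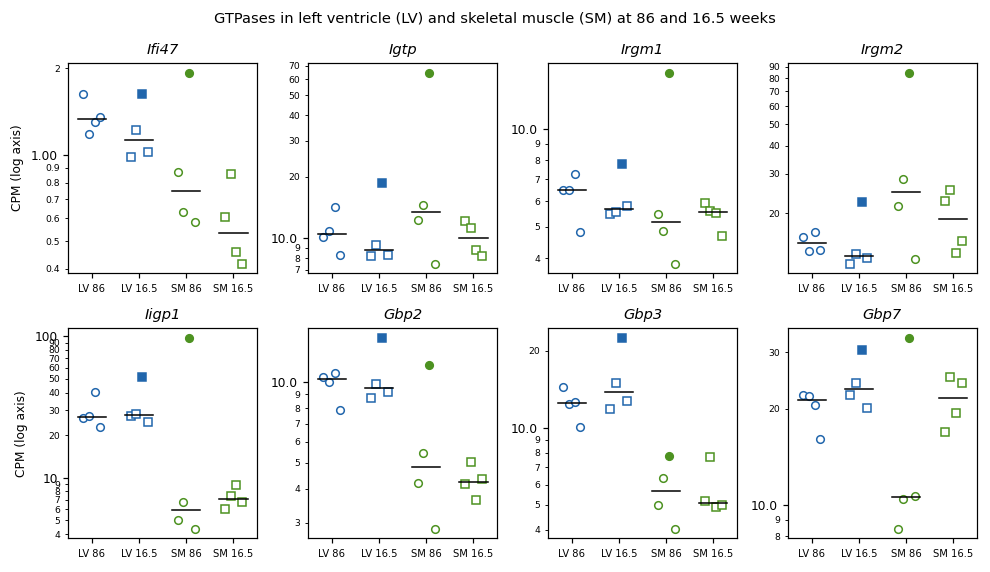
Level of the 8 GTPase genes in left ventricle and skeletal muscle at 86 and 16.5 weeks (CPM, log axes, 1 point a library, bars are medians of 4, circles 86 weeks, squares 16.5 weeks). The filled circle is the muscle of 86-week replicate 14, with 97.5 CPM of Iigp1, and the filled square the ventricle of 16.5-week replicate 19, with 51.2 CPM.

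The third comparison was sex, male against female within each tissue, from the same fits as age. In kidney 8 members were lower in males (3.81% of all genes were lower) and none was higher. There 23 had an unadjusted p under 0.05 (17.1% of all genes) and 2 of 39 had a log2 difference above 0 (47.6% of all genes), with a median of -0.34. In left ventricle 0 members passed (0.871% of all genes did), 4 had an unadjusted p under 0.05 (5.10%) and 12 had a difference above 0 (46.3%), with a median of -0.13. In skeletal muscle 0 passed (1.36%), 8 had an unadjusted p under 0.05 (9.62%) and 10 had a difference above 0 (54.1%), with a median of -0.21. DESeq2 and limma-voom called 0 members in both of these tissues. In kidney the libraries of the sexes did not overlap for 10 members, all lower in males (6.05% of all genes), namely Irf9, Ddx58, Ifit1, Ifit2, Oasl2, Ifi47, Gbp3, Gbp7, Parp14 and Ifi27.

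Gbp3, a guanylate-binding protein of the cluster on chromosome 3, had the largest sex difference. The male kidneys had 8.55, 7.58, 9.67 and 9.16 CPM (86-week replicates 14 and 17, then 16.5-week replicates 19 and 20), and the female kidneys had 41, 66.1, 48.1 and 55.3 CPM (86-week replicates 11 and 12, then 16.5-week replicates 14 and 15). The sexes did not overlap at either age. The log2 difference, male less female, was -2.59 ± 0.14 (edgeR adjusted p = 1.76e-08), and it stayed between -2.69 and -2.41 and past the threshold in all 15 fits. In left ventricle the males had 12.7, 10.1, 22.5 and 12.7 CPM and the females 14.4, 12.4, 11.9 and 14.9 CPM (0.08 ± 0.17, adjusted p = 1). In skeletal muscle the males had 7.73, 4.03, 4.92 and 4.99 CPM and the females 4.995, 6.34, 5.16 and 7.67 CPM (-0.16 ± 0.21, adjusted p = 0.882). The sexes overlapped in both of these tissues.

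The difference between tissues was tested for itself, a test added after the kidney values were seen. The sex difference of Gbp3 in kidney less that in ventricle was -2.68 ± 0.29 (edgeR adjusted p = 1.59e-06), and Gbp3 was the only member of 39 that passed (0.536% of all genes passed in that direction). Less that in skeletal muscle it was -2.38 ± 0.30 (1.08e-05), and there Gbp7 passed too, with -1.42 ± 0.37 (0.0389), so 2 of 39 passed (0.709%). The Gbp3 calls held in all 16 fits. The Gbp7 call was lost in 8 of 16 fits (adjusted p of 0.0126 to 0.281 over all 16), among them those without 86-week replicates 11, 12 or 14 (adjusted p = 0.105, 0.281 and 0.138) or 16.5-week replicates 14 or 20 (0.119 and 0.109). Without 86-week replicate 14 the Gbp7 value was -0.85. The difference of Gbp3 in kidney against muscle (2.12 ± 0.35) averages both sexes.

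Gbp7, next to Gbp3, had 15.3, 15.9, 14.2 and 13.3 CPM in male kidneys and 20.3, 32, 23.6 and 29.1 CPM in female kidneys, with no overlap and a log2 difference of -0.84 ± 0.13 (edgeR adjusted p = 0.000736). Gbp2, the third member of that cluster, gave -0.39 ± 0.15 (adjusted p = 0.153). The coding sequences of Gbp3 and Gbp7 are 78.6% identical. The other 6 calls in kidney were Oasl2 (-0.57 ± 0.13, adjusted p = 0.0141), Ifi27 (-0.66 ± 0.16, 0.0213), Ddx58 (-0.35 ± 0.09, 0.0227), Bst2 (-0.46 ± 0.12, 0.0262), Parp14 (-0.39 ± 0.10, 0.027) and Ifit2 (-0.37 ± 0.11, 0.0482). Oasl2 had 8.34, 9.13, 7.897 and 7.05 CPM in male kidneys and 10.9, 15.3, 9.15 and 13 CPM in female kidneys. Ifi27 had 16.2, 17.2, 12.6 and 12.3 CPM in male kidneys and 17.8, 25.5, 18.1 and 29.8 CPM in female kidneys. In both genes all 4 males lay below all 4 females.

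These 6 calls depended on the fit. Of 15 fits, Gbp7 passed in 15, Oasl2 in 13, Ifi27 in 10, Parp14 in 9, Ddx58 and Bst2 in 8 each and Ifit2 in 4. The 8 calls became 2 with 86-week replicate 12 left out, and 12 with 86-week replicate 11 left out. They became 3, 3 and 4 with 16.5-week replicates 15, 19 and 20 left out in turn, and 16 with scaling by total counts alone. The kidney of 86-week replicate 12, a female, was the highest of 8 for 30 of the 39 members. Its macrophage markers summed to 187 CPM, against 76.7 to 107 CPM in the other 7 kidneys, and its B and plasma cell markers to 96.9 CPM, against 51.8 to 79.7 CPM. Over all kidneys, each of the 10 macrophage markers had a sex difference below 0, with a median of -0.41 (-0.74 to -0.28), and 0 of the 10 passed edgeR's test (6 had an unadjusted p under 0.05). Their sum was 76.7 to 94.2 CPM in male and 87.5 to 187 CPM in female kidneys. Of the 7 endothelial markers, 2 were lower in male kidneys, Pecam1 and Vwf, and the list median was -0.29. The 4 adipocyte markers also had differences below 0 (median -2.01, with 0 past edgeR's test and 3 with an unadjusted p under 0.05). Their sum was 115 CPM in the kidney of 16.5-week replicate 15, a female and the highest kidney for Ifi27, and 2.62 to 20.4 CPM in the other 7. The part of these markers in the kidney values was not tested. Among 42 other interferon-induced genes, 11 were lower (3.81% of all genes) and 1 was higher (3.77%) in male kidneys. The higher one was Ly6e, which encodes a surface protein that restricts coronavirus entry, with 89.9, 106, 102 and 97.5 CPM in males and 44.5, 60.99, 37.2 and 48.4 CPM in females. In the other lists Il10rb, Jak2 and Tlr7 were lower in male kidneys.

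**Figure D5:**
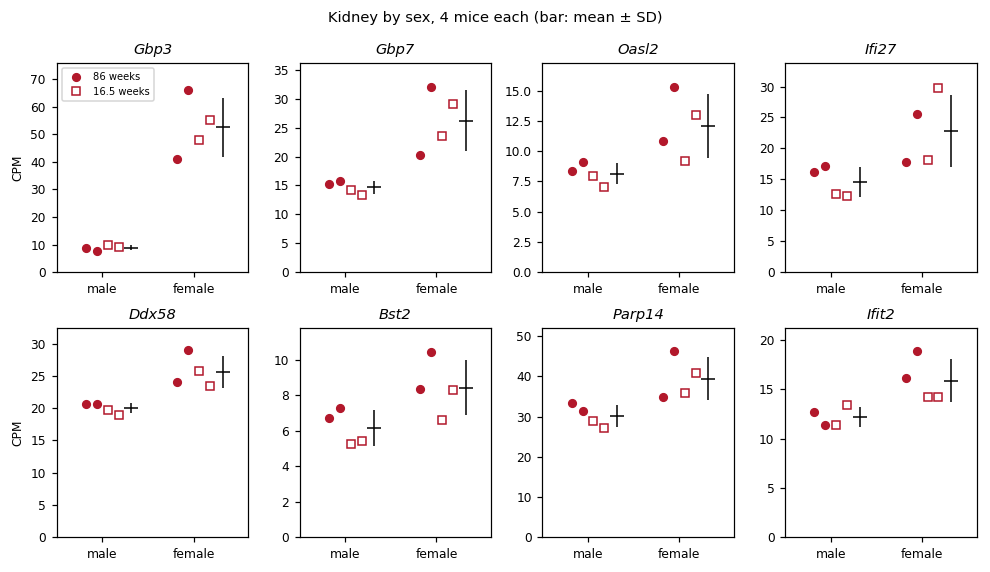
Level of the 8 genes lower in male than in female kidneys (CPM, points are kidneys of 4 males and 4 females, filled for 86 weeks and open for 16.5 weeks, bars are mean ± SD). The male points of Gbp3 run from 7.58 to 9.67 CPM, below the female points of 41 to 66.1 CPM at both ages.

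In ventricle the smallest p for sex belonged to Oas2 (-0.39 ± 0.15, edgeR adjusted p = 0.753), Rsad2 (-0.32, 0.765), Xaf1 (-0.33, 0.8301), Oas1a (-0.37, 0.90) and Isg15 (-0.35, 1), none past the test. In muscle it belonged to Ifit3b (-0.47 ± 0.15, 0.226), Oasl2 (-0.50, 0.3405), Cmpk2 (-0.46, 0.373), Oasl1 (-0.60, 0.375) and Ifi44 (-0.58, 0.392). The muscles of the sexes did not overlap for Ifit3b and Oasl1, both lower in males (2.88% of all genes). The male muscles had 8.29, 5.87, 8.36 and 6.76 CPM of Ifit3b and the female muscles 11.7, 10.7, 9.04 and 9.39 CPM. Of the 8 GTPases, 7 had a sex difference above 0 in ventricle (46.3% of all genes), 7 in muscle (54.1%) and 0 in kidney (47.6%). All 8 were highest in 1 male library of ventricle, 16.5-week replicate 19, and 1 of muscle, 86-week replicate 14. Without 16.5-week replicate 19 the ventricle median over the 39 members was -0.22 with 5 above 0. Without 86-week replicate 14 the muscle median over the 39 members was -0.42 with 4 above 0, and Irgm2 then passed, lower in males (adjusted p = 0.0175).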

How the data were processed

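Total RNA sequencing of 24 libraries (3 tissues of 8 mice) was analysed from the deposited table of gene counts. The authors aligned reads with STAR 2.7.6a to GRCm38.p6 and used StringTie 2.1.1, per the submitters' processing notes. The annotation release, the strand setting and the way StringTie output became counts are not given in the sources used here. The deposited values were whole-number counts, with library totals of 52602585 to 103797551. Members and lists were chosen with earlier results of these data known.

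Replicates were separate mice, per the labels. Counts were tested with edgeR 4.0.16 in R 4.3.3 (TMM factors, filterByExpr, quasi-likelihood F-test, two-sided) with Benjamini-Hochberg adjustment over all genes tested and a threshold of 0.05. Age and sex were fitted together in each tissue (44572 genes in kidney, 44546 in left ventricle, 43711 in skeletal muscle). Tissue comparisons and the difference in age change between tissues were fitted over 24 libraries (46984 genes) with sex as a covariate. A further fit with a sex term for each tissue, chosen after seeing the data, gave the difference in sex effects. CPM used TMM factors computed within a tissue, set to 1 constant per tissue. Exon lengths came from GENCODE M21, where 37 member identifiers matched with their version. The fits were tested on simulated data. Alternatives were DESeq2 1.42.0, limma-voom (limma 3.58.1), other scaling and filters, each mouse left out, and the mouse as a block.

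Tissues of the same animal are paired by the mouse names in the labels. Deviations of same-mouse libraries correlated at -0.0869 to 0.417 over 19714 genes. Genes named with tests were, for age and sex, members past the threshold or, where fewer than 4 passed, the 5 with the smallest p, and, for tissues, up to 6 largest in each direction with a mean of at least 1 CPM. Genes named outside this rule were chosen after their values were seen.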

Additional observations from a re-analysis of the deposited data

Results flagged for a closer look

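In 17 of 234 groups of 4 libraries (39 genes in 3 tissues and 2 ages), 1 library lay far from the other 3 by Dixon's test at its 95% critical value. Chance gives about 1 in 20 such groups. In all 17 the far library was the highest of 4. In the muscle of 86-week replicate 14 these were Igtp at 64.7 CPM (others 7.52 to 14.6), Irgm1 at 14.9 CPM (others 3.86 to 5.46), Iigp1 at 97.5 CPM (others 4.37 to 6.72) and Gbp7 at 33.3 CPM (others 8.44 to 10.7). In the ventricle of 16.5-week replicate 19 they were Igtp at 18.6 CPM (others 8.17 to 9.23), Irgm1 at 7.78 CPM (others 5.46 to 5.80), Irgm2 at 22.5 CPM (others 11.97 to 13.2), Iigp1 at 51.2 CPM (others 24.6 to 28.3) and Ddx58 at 15.1 CPM (others 12.8 to 13.1). In the muscle of 16.5-week replicate 15 they were Dhx58 at 3.75 CPM (others 2.15 to 2.40), Gbp3 at 7.67 CPM (others 4.92 to 5.16), Xaf1 at 5.03 CPM (others 3.30 to 3.52) and Rtp4 at 2.77 CPM (others 1.21 to 1.45). In the kidney of 16.5-week replicate 15 they were Oas1a at 4.21 CPM (others 2.45 to 2.68) and Xaf1 at 6.66 CPM (others 3.75 to 4.19). The 4 adipocyte markers summed to 115 CPM in that kidney and 2.62 to 20.4 CPM in the other 7 kidneys, and their part in these values was not tested. The last were Ddx58 at 7.12 CPM in the muscle of 86-week replicate 12 (others 5.25 to 5.42) and Rtp4 at 2.95 CPM in the kidney of 16.5-week replicate 14 (others 2.59 to 2.61).

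The sex difference of 2 genes differed between tissues by edgeR's test of the difference itself, which was chosen after seeing the data. For Gbp3 the male minus female log2 difference in kidney less that in left ventricle was -2.68, and less that in skeletal muscle it was -2.38. For Gbp7 the difference in kidney less that in skeletal muscle was -1.42.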

How the results depend on the processing

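The count of members called with age was 0 in each tissue under every alternative run except DESeq2 in kidney, which called 2. With 1 mouse left out at a time the counts were 0 to 0 for age in each tissue and for the age change between tissues, 0 to 0 for sex in ventricle and 0 to 1 in muscle (1 without 86-week replicate 14), and 2 to 12 for sex in kidney. They were 26 to 29 in left ventricle against skeletal muscle, 17 to 19 in kidney against left ventricle and 28 to 31 in kidney against muscle. For sex in kidney, scaling with RLE size factors gave 4 calls and total counts alone 16. For the sex difference in kidney less that in ventricle the left-out counts were 1 to 2 (2 without 86-week replicate 17). Less that in muscle they were 1 to 2, and RLE size factors, limma-voom and no low-count filter gave 1, 1 and 1. Under total counts alone the median of all genes in that comparison was -0.16, against 0.016 with TMM. Signs turned in kidney against muscle under total counts alone for Ifit3b (0.20) and Oas2 (0.18), and without 86-week replicate 14 for Iigp1 in the sex difference in kidney less that in muscle (0.032, within a left-out range of -2.27 to 0.032). For these the cause was not tested.

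With the mouse as a replicate block the tissue comparisons called 31 (left ventricle against muscle), 19 (kidney against left ventricle) and 31 (kidney against muscle), the age change between tissues 0, and the sex differences 1 and 2, so the block moved no count by over 1.5 times. The main tissue fits left out the pairing of tissues by mouse. For age and sex within a tissue no paired analysis was possible, because the groups compared come from different mice. The number 14 shared by both ages names different animals. Background limits the low members, since Ifi47 and Ifi44 in muscle lay at the level of olfactory receptor genes. Zbp1 in muscle lay little above that level, at 0.485 against 0.347 CPM per exon kb. An effect of depth was not tested.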

Other observations

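Among the interferon receptor genes, Il10rb, a chain of the interferon lambda and interleukin-10 receptors, had a log2 difference of 2.24 ± 0.12 in kidney against muscle, -1.39 ± 0.12 in kidney against left ventricle and 3.63 ± 0.13 in left ventricle against muscle. Ifnar2, the other chain of the type I receptor, had 1.90 ± 0.12 in left ventricle against muscle and 1.91 ± 0.12 in kidney against muscle.

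Ly6e was the 1 gene of the 42 other interferon-induced genes that was higher in male than in female kidneys (1.06 ± 0.12, edgeR adjusted p = 6.40e-05). Its sex difference in kidney less that in left ventricle was 1.07 ± 0.28 (adjusted p = 0.0495) and less that in muscle 1.44 ± 0.28 (0.00307). The 11 that were lower in male kidneys included Ifitm1, Ifitm2 and Ifitm3, which encode membrane proteins that block virus entry, with log2 differences of -0.91 ± 0.24, -0.68 ± 0.12 and -0.65 ± 0.13. These genes were named after their values were seen.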
